A study of Mus musculus with 6 samples.

Results

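The genes described here carry out DNA replication and mitosis, and they were measured in 2D-MAOs, which are mouse airway epithelial organoids plated as a flat culture. They comprised 53 genes of the 22910 named genes on the array, 31 that act in mitosis and 22 that act in S phase, taken by gene name through the RefSeq accession of their probes. The cells came from lung airway epithelium of C57BL/6 mice, and no age was given. From day 3 the medium lacked noggin, a BMP antagonist, and A83-01, an inhibitor of TGF-β receptor kinases, as the methods describe for cultures with and without TGF-β1 alike. In that medium 3 cultures received TGF-β1 and 3 control cultures did not. The array methods name no concentration of TGF-β1. All cultures were collected on day 7 and were described by the study as biological replicates. Each was measured on 1 array with 1 dye, on which the brightness of a spot reports how much RNA its probe has bound.

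Dividing cells copy their DNA in S phase and separate the copies in mitosis. Genes of the replication machinery are switched on around the entry into S phase, largely by E2F transcription factors, while genes of mitosis are switched on later, largely through promoter elements named CHR (cell cycle genes homology region) and CCAAT. TGF-β is known as a brake on the division of epithelial cells, acting before S phase, so that the RNA of both classes is a usual readout of how many cells in a culture divide. In an array of a whole culture, fewer dividing cells and less RNA in each dividing cell cannot be told apart.

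The sequence features that separate the classes stood in their promoters. Promoter windows of 300 bases, from 250 before to 50 after the gene start, were taken from RefSeq (build GRCm38.p6) and were found for 27 of the 31 mitosis genes and 18 of the 22 S phase genes. Prc1, Mcm7, Fen1 and Uhrf1 had 2 windows each, and a match in either window counted for the gene. On both strands CHR was searched as TTTGAA and in a second spelling as TTCGAA. The CCAAT box was searched by the letters of its name. For E2F the words were TTTGGCGC, TTTCCCGC, TTTCGCGC and TTTGCCGC. A CHR was found in 21 mitosis promoters (77.8%), in 4 S phase promoters (22.2%) and in 21.7% of all 27025 genes with a promoter window. An E2F word was found in 1 mitosis promoter (3.7%), that of Cdk1, and in 8 S phase promoters (44.4%), beside 2.6% of all genes. CCAAT was common in both classes, in 77.8% and 61.1% of promoters against 41.1% of all genes. A CHR together with CCAAT was present in 70.4% of the mitosis promoters, 16.7% of the S phase promoters and 9.65% of all genes. Among the genes tested on the arrays, the shares were 16.8% for CHR, 42.6% for CCAAT and 8.17% for both. For E2F that share was 4.46%, above the 3.7% of the mitosis promoters. With all windows pooled, of the 84 matches in mitosis promoters and the 43 in S phase promoters, 2 in each class overlapped a match of another motif. The 2 windows of Prc1 overlap, so its CHR and its CCAAT box are counted in both. A match is a run of letters and says nothing of whether a factor was bound in these cells.

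The 100 bases before the start are shown for 4 mitosis genes with CHR and CCAAT close to the start and for 3 S phase genes whose differences between the groups had opposite signs, Mcm6 against Mcm2 and Pcna. Capitals mark CHR, CCAAT and E2F words on either strand.
Top2a (chr11:99024190-99024289, minus strand): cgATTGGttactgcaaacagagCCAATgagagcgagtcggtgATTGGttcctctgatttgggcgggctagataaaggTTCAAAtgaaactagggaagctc
Cdk1 (chr10:69352913-69353012, minus strand): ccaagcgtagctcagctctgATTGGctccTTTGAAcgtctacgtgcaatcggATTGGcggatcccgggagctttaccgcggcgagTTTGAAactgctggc
Cdc20 (chr4:118437344-118437443, minus strand): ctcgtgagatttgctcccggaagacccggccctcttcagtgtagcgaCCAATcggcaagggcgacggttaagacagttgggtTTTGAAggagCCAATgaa
Ube2c (chr2:164769829-164769928, plus strand): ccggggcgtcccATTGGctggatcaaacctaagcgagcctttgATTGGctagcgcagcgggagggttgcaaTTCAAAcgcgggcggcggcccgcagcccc
Mcm6 (chr1:128359706-128359805, minus strand): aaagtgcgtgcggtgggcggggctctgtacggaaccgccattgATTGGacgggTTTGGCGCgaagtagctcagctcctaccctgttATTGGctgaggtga
Mcm2 (chr6:88898781-88898880, minus strand): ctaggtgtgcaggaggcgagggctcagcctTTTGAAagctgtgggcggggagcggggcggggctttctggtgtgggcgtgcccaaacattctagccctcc
Pcna (chr2:132253181-132253280, minus strand): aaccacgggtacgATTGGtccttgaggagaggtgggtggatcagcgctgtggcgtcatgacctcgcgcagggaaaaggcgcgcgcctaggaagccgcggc

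**Figure D1:**
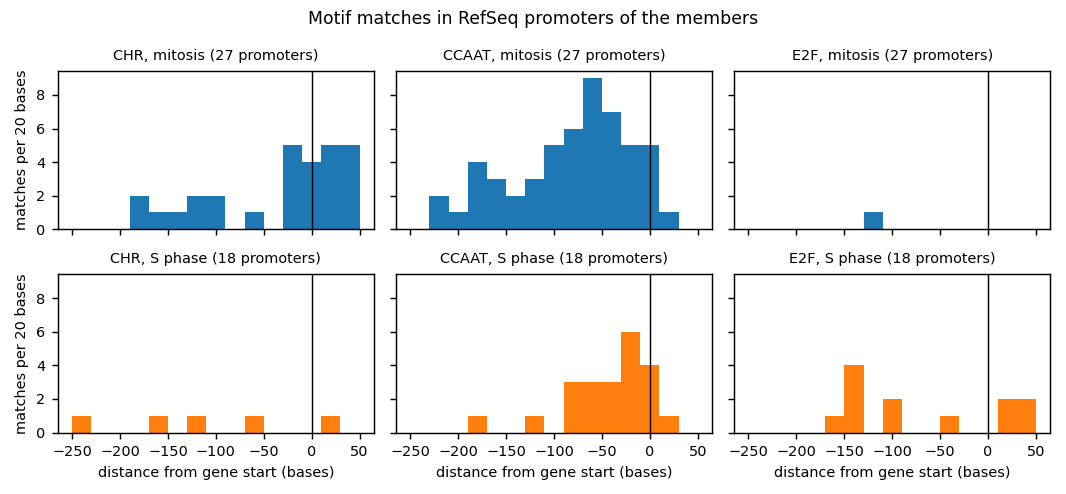
Matches of 3 motifs in the RefSeq promoter windows of the mitosis genes (upper row, 27 genes) and the S phase genes (lower row, 18 genes). The x axis is the distance of the match from the gene start in bases and the y axis is the number of matches in each 20 bases. Only the first window of each gene is shown. CHR matches lie mostly in the upper row and E2F matches mostly in the lower row. Of the 8 S phase genes with an E2F word, Uhrf1 has it only in its second window, which is not shown.

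The 6 arrays had between 55.0% and 59.0% of probes well above background. TGF-β1 replicate 3 stood apart from the other TGF-β1 arrays in the genes described here, so results are also given without it for both classes and for most of the members described one by one. The array was singled out by the values of these same genes, so adjusted p values without it are descriptive and not independent evidence. Over all 14345 genes tested, 281 lay at least 1 log2 unit above the control mean on it, against 682 and 634 on TGF-β1 replicates 1 and 2. As far below lay 249, against 218 and 316. Replicate 3 of each group lay in the second row of the slide and the other 4 arrays in the first. The labelled epithelial origin was checked on marker lists. Among 13 epithelial markers, 11 were tested, and Muc5ac and Sftpc were not well above background on any array. Among 9 fibroblast markers 5 were tested, among 6 endothelial markers 2, and among 7 leukocyte markers 3. In each of these 3 lists 4 markers were not well above background anywhere, among them Col3a1, Cdh5 and Ptprc. Of those tested, 3 fibroblast, 1 endothelial and 3 leukocyte markers were well above background on all 6 arrays. Mean log2 signals of these leukocyte markers ran from 8.21 to 12.07. Their summed signal was 12.44 to 12.67 in controls and 12.97 to 13.31 after TGF-β1. At least 2-fold higher after TGF-β1, with a limma adjusted p under 0.05, were 2 fibroblast markers and 1 epithelial marker. The lists thus do not show that only epithelial cells were present.

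All 53 members had probes, 82 in all, of which 72 were well above background on 3 or more arrays. That left 51 members in the test, 30 of mitosis and 21 of S phase, and 45 of them were well above background on all 6 arrays. Kif2c, a kinesin that shortens microtubules, was not tested because its better probe was well above background on 1 control array and 1 TGF-β1 array. Ccne2, the second cyclin E, was not tested because no array showed its probe well above background.

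None of the 51 members was a DEG in the comparison of TGF-β1-treated with control 2D-MAOs, where a DEG differed at least 2-fold with a limma p under 0.05 after Benjamini-Hochberg adjustment. Over all 14345 genes tested, 1.19% were higher and 0.188% were lower by that rule. Dropping the 2-fold limit added no member, and the lowest adjusted p was 0.144, that of Tpx2. At an unadjusted p under 0.05, 5 members were higher (Tpx2, Mcm6, Mcm7, Gins1 and Ccne1) and 3 were lower (Cdk1, Mcm2 and Pcna), beside 11.4% and 10.8% of all genes. The median log2 fold change, TGF-β1 minus control, was -0.01 over the mitosis genes, with 15 higher and 15 lower, and -0.04 over the S phase genes, with 9 higher and 12 lower. Over all genes tested it was -0.03. The S phase median was thus 0.03 below the mitosis median on the log2 scale.

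Single members also seldom separated the groups. All 3 TGF-β1 arrays lay above all 3 control arrays in 4 members (Tpx2, Mcm6, Mcm7 and Gins1), beside 12.9% of all genes. They lay below in 3 members (Cdk1, Mad2l1 and Pcna), beside 13.5% of all genes.

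The mitosis genes differed from one TGF-β1 culture to another far more than between the groups. Relative to the mean of the controls, their median signal was 0.67 higher on TGF-β1 replicate 1, 0.29 higher on replicate 2 and -0.90 on replicate 3, all on the log2 scale. On the control arrays the same median was -0.13, -0.13 and 0.23, and control replicate 3 was the highest control in 28 of 30 genes (93.3%), against 37.9% of all genes. TGF-β1 replicate 3 was the lowest of all 6 arrays in 24 of 30 mitosis genes (80.0%), against 11% of all genes tested. TGF-β1 replicate 1 was the highest of all 6 arrays in 25 of 30 (83.3%), against 15.4% of all genes. The 3 TGF-β1 arrays stood in the order replicate 1, 2, 3 from high to low in 25 mitosis genes (83.3%), against 16.9% of all genes. In 13 mitosis genes replicates 1 and 2 were above every control and replicate 3 was below every control, which held for 2.93% of all genes. These genes share their arrays, so the counts describe 3 cultures and not 30 independent observations.

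The S phase genes spread less, although part of them followed the same arrangement. Their median deviation on the TGF-β1 arrays was 0.15, -0.02 and -0.05, and on the control arrays it was -0.04, -0.04 and 0.09. TGF-β1 replicate 3 was lowest in 6 of 21 S phase genes (28.6%), namely Mcm5, Rrm2, Gins2, Cdc6, E2f1 and Uhrf1, beside the 11% of all genes. TGF-β1 replicate 1 was highest in 42.9% of the S phase genes, beside 15.4% of all genes, and control replicate 3 was the highest control in 66.7%, beside 37.9%. In 4 S phase genes (19.0%) replicates 1 and 2 were above and replicate 3 was below every control, beside 2.93% of all genes. Within the TGF-β1 group, the range between the highest and lowest array had a median of 1.54 over the mitosis genes, 0.48 over the S phase genes and 0.32 over all genes. Within the control group these medians were 0.47, 0.26 and 0.30. Over the 13 mitosis genes with a mean log2 signal of at least 8, a subset chosen after the data were seen, the deviations on the TGF-β1 arrays were smaller, 0.46, 0.29 and -0.44.

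**Figure D2:**
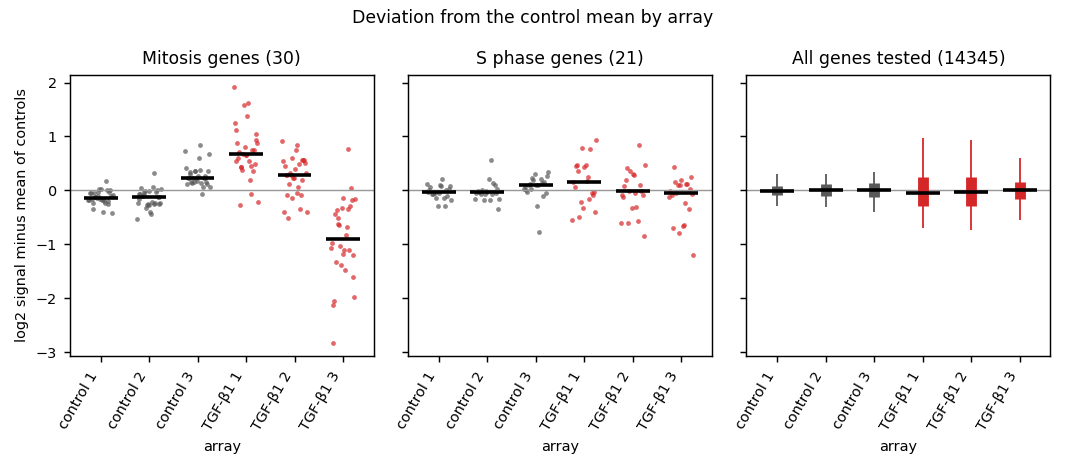
Deviation of normalised log2 signal from the mean of the 3 control arrays (y axis) on each array (x axis) for 30 mitosis genes, 21 S phase genes and all 14345 genes tested. Points are genes and black lines are medians, and in the right panel thick bars span the middle 50% and thin lines the middle 90% of genes; the mitosis genes are highest on TGF-β1 replicate 1 and lowest on TGF-β1 replicate 3, while the S phase medians stay between -0.05 and 0.15.

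**Figure D3:**
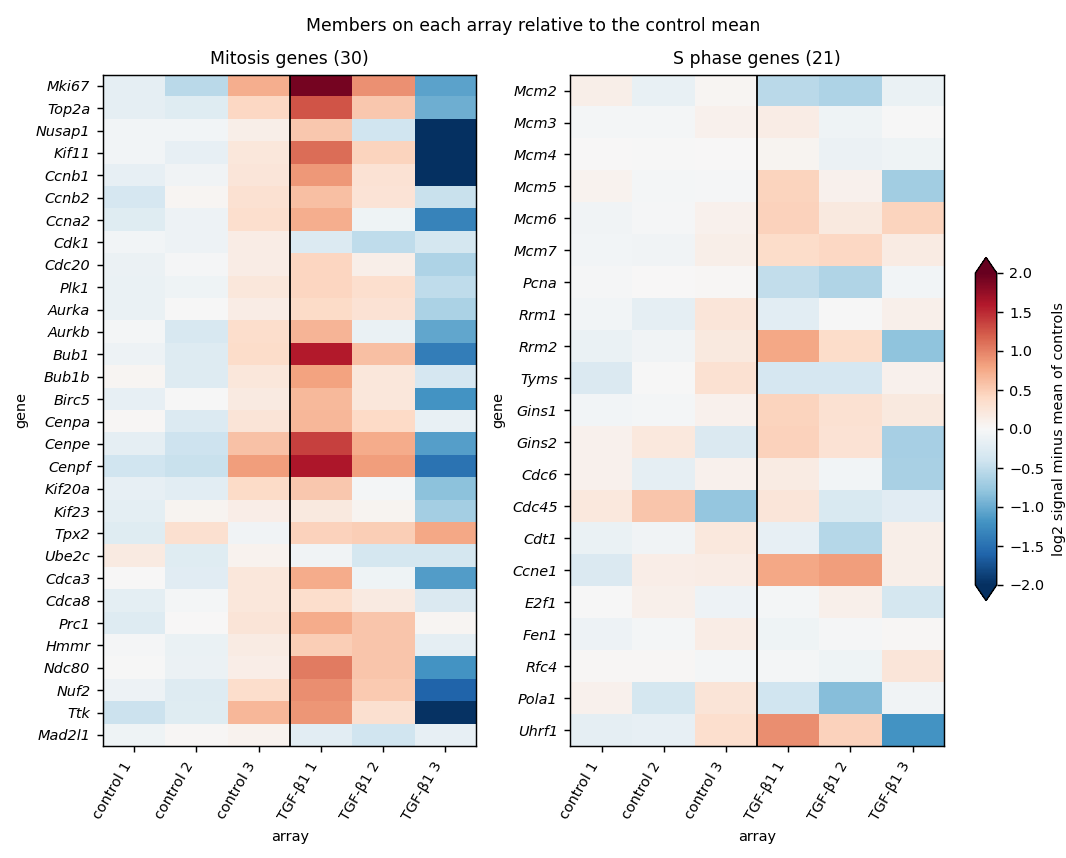
Normalised log2 signal minus the mean of the 3 control arrays for each tested member (rows) on each array (columns), with red above and blue below the control mean and colours cut at 2 and -2. In the mitosis panel TGF-β1 replicate 3 is below every control in 27 of 30 genes, while Tpx2 is higher there and Cdk1 and Mad2l1 are lower on all 3 TGF-β1 arrays.

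With all arrays the mitosis genes had no common direction, and the median moved either way when a TGF-β1 array was left out. Without TGF-β1 replicate 1 it was -0.31 over the mitosis genes, and Mki67 was at -0.07, Top2a at -0.22 and Cenpe at -0.18 on the log2 scale. Without TGF-β1 replicate 3 the median log2 fold change was 0.46 over the mitosis genes, with 27 of 30 higher, and 0.03 over the S phase genes, with 11 of 21 higher. Over all 14345 genes tested the median was -0.04, with 6515 higher. Of the 51 members, 16 changed sign, 12 of them mitosis genes, beside 1020 of the 14345 genes. No member became a DEG without that array, where 3.86% of all genes were higher and 1.09% were lower. At any size of change, 3 members were higher with a limma adjusted p under 0.05 (Hmmr, Ndc80 and Ccne1), beside 9.08% of all genes, and 2 were lower (Mcm2 and Pcna), beside 6.27%. Ndc80 was well above background on 1 control array and 2 TGF-β1 arrays, so it passed the filter of 3 arrays mainly through TGF-β1 arrays. In the first slide row alone, which holds replicates 1 and 2 of each group, the mitosis median was 0.56. There Mki67, Top2a, Cenpe and Cenpf were DEGs and higher, 4 members beside 4.37% of all genes, and no member was lower, beside 1.63%. At any size of change, 17 members were higher in that row with a limma adjusted p under 0.05, 12 of them mitosis genes, beside 13.8% of all genes, and Mcm2 and Pcna were lower, 2 members beside 13%. Ndc80 and Ttk were among the 17, and Ttk too was well above background on 1 control array and 2 TGF-β1 arrays. With array weights, which gave TGF-β1 replicate 3 the lowest weight, 8 members were higher, beside 16.8% of all genes, and Cdk1, Mcm2 and Pcna were lower, 3 members beside 18%. In the second row, with 1 array per group and no test, the mitosis median was -1.26. The S phase medians in the first and second row were 0.02 and -0.12. Slide row cannot be told apart from replicate 3.

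Other lists moved with TGF-β1 replicate 3 as well, and their part in the mitosis result was not tested. The 13 genes of a hypoxia response list, all tested, had median deviations of -0.39, -0.60 and 0.17 on the TGF-β1 arrays and -0.03, -0.20 and 0.23 on the control arrays. Their summed signal was 18.7 to 18.9 on the log2 scale in controls and 18.2 to 18.8 after TGF-β1, with the highest TGF-β1 value in replicate 3. The summed signal of the fibroblast markers was 9.15 to 9.32 in controls and 11.4, 10.2 and 9.45 on TGF-β1 replicates 1, 2 and 3. That of the epithelial markers was 18.2 to 18.4 in controls and 18.7, 18.6 and 18.1 on the TGF-β1 arrays.

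Mki67 and Top2a belong to mitotic chromosomes. Mki67, the gene of the proliferation marker Ki-67 that coats them, had normalised log2 signals of 8.62, 8.27 and 9.53 on control replicates 1, 2 and 3 and 10.72, 9.73 and 7.74 on TGF-β1 replicates 1, 2 and 3. TGF-β1 replicates 1 and 2 were above every control and replicate 3 was below every control, so the groups overlapped. On the log2 scale the difference between the groups was 0.59 (95% CI -1.16 to 2.34, limma adjusted p = 0.649) and, without TGF-β1 replicate 3, 1.42 (adjusted p = 0.0787). Top2a, the topoisomerase that untangles sister DNA, had 8.13, 8.06 and 8.72 in controls and 9.55, 8.85 and 7.32 after TGF-β1. The arrays fell in the same arrangement as for Mki67. For Top2a the difference was 0.27 (95% CI -1.01 to 1.55, limma adjusted p = 0.779), or 0.90 without TGF-β1 replicate 3 (adjusted p = 0.0808).

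The mitotic kinases and their regulators held both the spread and its exceptions. Ccnb1, cyclin B1, which activates Cdk1 at the entry into mitosis, had 6.92, 7.02 and 7.32 in controls and 7.96, 7.38 and 5.02 after TGF-β1. It was highest in TGF-β1 replicate 1 and lowest in replicate 3, with a log2 fold change of -0.30 (95% CI -1.96 to 1.36, limma adjusted p = 0.817). Without TGF-β1 replicate 3 its log2 fold change was 0.58 (adjusted p = 0.111). Cdk1, the kinase that cyclin B1 activates, did not follow its cyclin. It had 7.38, 7.33 and 7.59 in controls and 7.16, 6.93 and 7.07 after TGF-β1, and every TGF-β1 array was below every control array. The log2 fold change of Cdk1 was -0.38 (95% CI -0.67 to -0.09, limma adjusted p = 0.155) and -0.39 without TGF-β1 replicate 3 (adjusted p = 0.1).

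Tpx2, which activates Aurora A on the spindle, was the reverse of Cdk1. Its log2 signals were 8.11, 8.67 and 8.27 in controls and 8.81, 8.84 and 9.12 after TGF-β1. Every TGF-β1 array was above every control, and replicate 3, the lowest array for most mitosis genes, was the highest. The log2 fold change was 0.58 (95% CI 0.16 to 0.99, limma adjusted p = 0.144), and 0.48 without replicate 3. Aurka, which encodes Aurora A itself, had a log2 fold change of 0.01 and was lowest on TGF-β1 replicate 3, without which it had 0.33. Of the other kinase genes and their partners, Plk1, Aurkb, Birc5, Cdca8, Ccna2 and Ccnb2 had log2 fold changes between -0.23 and 0.15, and each was lowest on TGF-β1 replicate 3. Without that array their log2 fold changes were between 0.27 and 0.44, and Aurkb, Birc5 and Ccna2 changed sign.

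The kinetochore and centromere genes, which tie chromosomes to the spindle, showed a wide spread. Their median range within the TGF-β1 group was 2.48 on the log2 scale, against 0.61 within controls. Cenpe, a kinesin of the kinetochore, had 7.41, 7.19 and 8.19 in controls and 8.97, 8.34 and 6.49 after TGF-β1. TGF-β1 replicates 1 and 2 exceeded every control and replicate 3 was the lowest array. Its log2 fold change was 0.34 (95% CI -1.14 to 1.82, limma adjusted p = 0.763), or 1.06 without TGF-β1 replicate 3 (adjusted p = 0.0823). Cenpf, Ndc80 and Nuf2, further kinetochore genes, lay 1.62, 1.04 and 0.93 above the control mean on TGF-β1 replicate 1 and at -1.47, -1.19 and -1.60 on replicate 3. Ndc80 was well above background on 1 control array and 2 TGF-β1 arrays. Cenpa, the histone that marks the centromere, varied less, at 0.66 on replicate 1 and -0.15 on replicate 3.

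**Figure D4:**
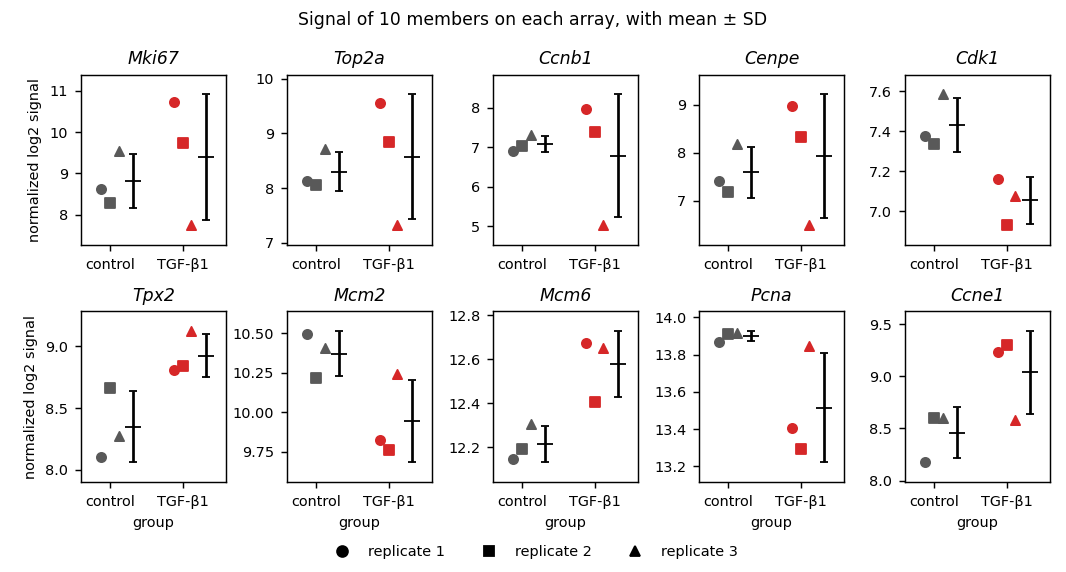
Normalised log2 signal (y axis, a separate scale for each gene) of 10 members in control (grey) and TGF-β1-treated (red) 2D-MAOs, with a symbol for each replicate number and a black mark with bars for mean ± SD (n = 3). In Mki67, Top2a, Ccnb1 and Cenpe the TGF-β1 triangle of replicate 3 lies below all controls, whereas in Cdk1 all TGF-β1 arrays are below and in Tpx2 and Mcm6 all are above the controls.

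The spindle checkpoint and the enzymes of anaphase were likewise split. Ttk, the kinase known as Mps1 that starts the checkpoint, had 4.10, 4.29 and 5.20 in controls and 5.41, 4.86 and 2.55 after TGF-β1, and it was well above background on 1 control array and 2 TGF-β1 arrays. Its log2 fold change was -0.26 (95% CI -1.98 to 1.46, limma adjusted p = 0.849), with replicate 3 lowest and replicate 1 highest. Without TGF-β1 replicate 3 it was 0.60 (adjusted p = 0.272). Mad2l1, a checkpoint protein that restrains Cdc20, had 9.56, 9.66 and 9.71 in controls and 9.42, 9.24 and 9.48 after TGF-β1. The groups did not overlap, with every TGF-β1 array lower, by a log2 fold change of -0.26 (95% CI -0.53 to 0.01, limma adjusted p = 0.233), and -0.31 without replicate 3. Ube2c, the ubiquitin-conjugating enzyme of the anaphase-promoting complex, had 10.04, 9.61 and 9.92 in controls and 9.79, 9.51 and 9.51 after TGF-β1. TGF-β1 replicate 1 lay inside the control range and the other two lay below it, and the log2 fold change was -0.26 (95% CI -0.62 to 0.10, limma adjusted p = 0.344), and -0.21 without replicate 3. Bub1, Bub1b, Cdc20 and Cdca3, further genes of the checkpoint and of the exit from mitosis, were each highest on TGF-β1 replicate 1 and lowest on replicate 3. Their log2 fold changes ran from -0.15 to 0.27.

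Among the spindle motors and the proteins of the spindle and of cytokinesis, Nusap1, which bundles microtubules, had 5.46, 5.45 and 5.63 in controls and 6.05, 5.11 and 2.67 after TGF-β1, where it was well above background on 2 of 3 arrays. Its log2 fold change of -0.90 (95% CI -2.75 to 0.95, limma adjusted p = 0.506) came from TGF-β1 replicate 3 and was 0.07 without it (adjusted p = 0.88). On that array the probe was not well above background, and with a normexp background the log2 fold change was -0.16. Prc1, which bundles the microtubules between separating chromosomes, had 8.56, 8.82 and 9.08 in controls and 9.57, 9.38 and 8.85 after TGF-β1. TGF-β1 replicate 3 was within the control range and the other two were above it. Its log2 fold change was 0.45 (95% CI -0.07 to 0.97, limma adjusted p = 0.277), or 0.65 without TGF-β1 replicate 3 (adjusted p = 0.057). Kif11, the motor that pushes spindle poles apart, lay 1.12 above the control mean on TGF-β1 replicate 1 and at -2.13 on replicate 3, though it was well above background on 1 control array and 2 TGF-β1 arrays. Hmmr, Kif23 and Kif20a had log2 fold changes of 0.29, -0.14 and -0.11 and were lowest on replicate 3. Without that array their log2 fold changes were 0.52, 0.12 and 0.25, so Kif23 and Kif20a changed sign.

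**Figure D5:**
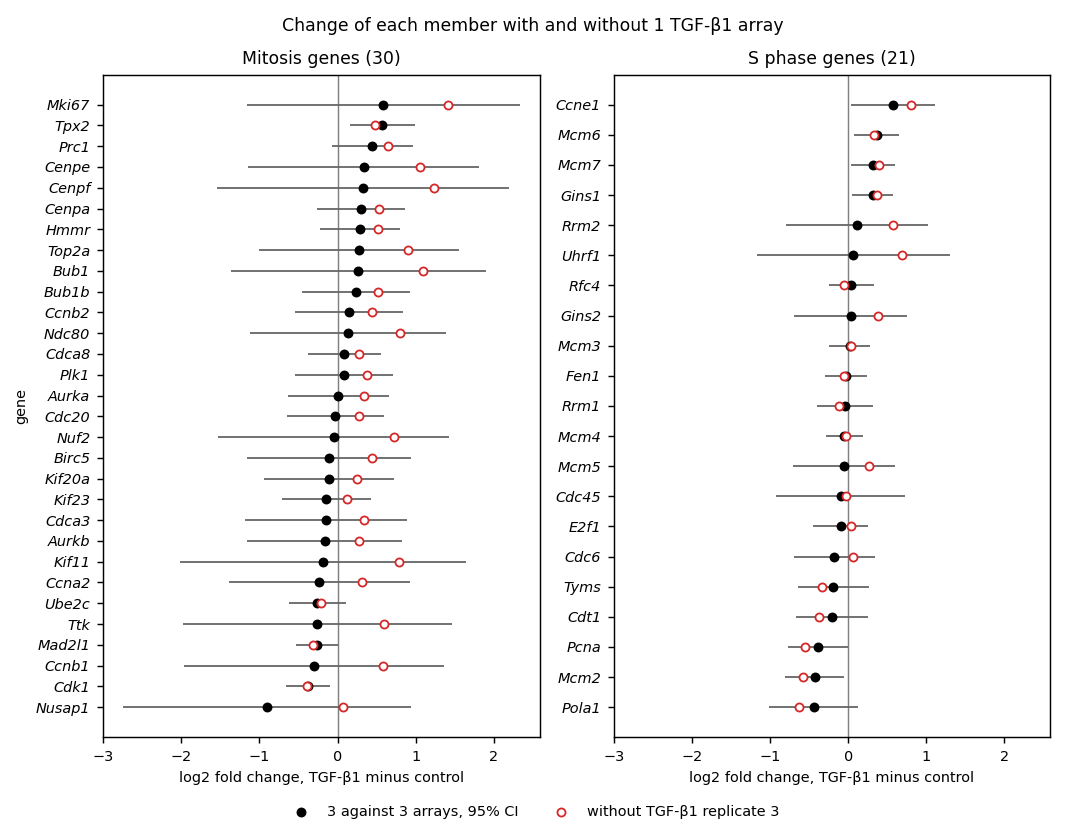
Log2 fold change, TGF-β1 minus control (x axis), of the 30 mitosis genes and 21 S phase genes tested (y axis), as black points with the 95% confidence interval from limma and as open red points without TGF-β1 replicate 3. In 27 of 30 mitosis genes the red points lie above 0, whereas in the S phase panel 11 of 21 do.

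In S phase, the genes that license replication origins and unwind DNA did not move together. The 6 Mcm genes encode the subunits of 1 ring, the replicative helicase, and their log2 fold changes ran from -0.43 to 0.36. Mcm2 had 10.49, 10.22 and 10.40 in controls and 9.83, 9.76 and 10.24 after TGF-β1. TGF-β1 replicates 1 and 2 were below every control and replicate 3 lay within the control range. For Mcm2 the log2 fold change was -0.43 (95% CI -0.81 to -0.05, limma adjusted p = 0.191), and -0.58 without TGF-β1 replicate 3 (adjusted p = 0.035). Mcm6 had 12.15, 12.19 and 12.31 in controls and 12.68, 12.40 and 12.65 after TGF-β1, every TGF-β1 array above every control, with a log2 fold change of 0.36 (95% CI 0.08 to 0.65, limma adjusted p = 0.161), and 0.33 without replicate 3. A second, dimmer Mcm6 probe, well above background on all 6 arrays, had -0.24, and the mean of both probes had 0.06 (limma adjusted p = 0.842). Mcm7 had 12.55, 12.55 and 12.73 in controls and 12.98, 13.03 and 12.77 after TGF-β1. On this probe it was higher on every TGF-β1 array, by a log2 fold change of 0.32 (95% CI 0.03 to 0.60, limma adjusted p = 0.193), and by 0.39 without replicate 3. A second, dimmer Mcm7 probe, also well above background on all 6 arrays, had -0.26, and the mean of both probes had 0.03 (limma adjusted p = 0.908). The direction of Mcm6 and Mcm7 thus differed between probes of the same gene. With scaling to the 75th percentile the log2 fold changes of Mcm6 and Mcm7 were smaller, 0.22 and 0.15. Mcm3 and Mcm4 had log2 fold changes of 0.02 and -0.05, with intervals of -0.24 to 0.28 and -0.29 to 0.19. Mcm5, at -0.05, had the mitosis arrangement of 8.43, 8.05 and 7.28 on the TGF-β1 arrays.

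Gins1, a subunit of the GINS complex that travels with the Mcm ring, had 6.98, 7.00 and 7.13 in controls and 7.47, 7.34 and 7.24 after TGF-β1. The groups did not overlap, and the log2 fold change was 0.31 (95% CI 0.05 to 0.58, limma adjusted p = 0.18), and 0.37 without replicate 3. The size depended on the processing, at 0.15 with a normexp background and 0.43 with scaling to the 75th percentile. Its partner subunit Gins2 had 7.74, 7.56 and 6.61 after TGF-β1 against 7.37, 7.48 and 6.98 in controls and overlapped them, with a log2 fold change of 0.03 (adjusted p = 0.961 by limma), and 0.38 without replicate 3. Cdc6 and Cdt1 load the ring onto origins. Cdc6 had 5.76, 5.51 and 5.77 in controls and 5.85, 5.63 and 5.03 after TGF-β1, with replicate 3 below every control and a log2 fold change of -0.18 (95% CI -0.70 to 0.34, limma adjusted p = 0.646), which was 0.06 without replicate 3. Cdt1 had 10, 10.07 and 10.34 in controls and 9.97, 9.57 and 10.25 after TGF-β1. Its groups overlapped, with replicate 2 the lowest, and the log2 fold change was -0.21 (95% CI -0.67 to 0.25, limma adjusted p = 0.536), and -0.37 without replicate 3.

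At the fork, Pcna, the clamp that holds DNA polymerases on their template, had 13.87, 13.91 and 13.92 in controls and 13.41, 13.29 and 13.85 after TGF-β1. Every TGF-β1 array was below every control, though replicate 3 was below the lowest control by a small step. The log2 fold change of Pcna was -0.38 (95% CI -0.76 to -0.00, limma adjusted p = 0.222), and -0.55 without TGF-β1 replicate 3 (adjusted p = 0.0253). Pola1, the catalytic subunit of the polymerase that starts new strands, had 8.76, 8.33 and 8.95 in controls and 8.28, 7.83 and 8.61 after TGF-β1. TGF-β1 replicates 1 and 2 were below every control and replicate 3 was not, with a log2 fold change of -0.44 (95% CI -1.02 to 0.13, limma adjusted p = 0.314), and -0.63 without replicate 3. Fen1, which trims lagging strand primers, and Rfc4, part of the loader of the clamp, had log2 fold changes of -0.03 and 0.04. Uhrf1, which keeps DNA methylation through replication, lay 0.93 above the control mean on TGF-β1 replicate 1 and at -1.19 on replicate 3, as mitosis genes did.

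The genes of deoxynucleotide supply had log2 fold changes between -0.19 and 0.11. Tyms, thymidylate synthase, had 9.69, 9.98 and 10.28 in controls and 9.65, 9.65 and 10.07 after TGF-β1. TGF-β1 replicates 1 and 2 were just below the lowest control and replicate 3 was within the control range, and the log2 fold change was -0.19 (95% CI -0.65 to 0.27, limma adjusted p = 0.569), and -0.33 without replicate 3. The subunits of ribonucleotide reductase differed from each other in spread. Rrm2, the subunit whose level follows the cell cycle, was 0.78 above the control mean on TGF-β1 replicate 1 and at -0.80 on replicate 3. Rrm1, the large subunit, was at -0.21 and 0.10 on the same arrays.

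Of the G1/S regulators, Ccne1, cyclin E1, which drives the entry into S phase with Cdk2, had 8.18, 8.60 and 8.60 in controls and 9.23, 9.29 and 8.58 after TGF-β1. TGF-β1 replicates 1 and 2 exceeded every control and replicate 3 did not. For Ccne1 the log2 fold change was 0.58 (95% CI 0.04 to 1.11, limma adjusted p = 0.203), and 0.81 without TGF-β1 replicate 3 (adjusted p = 0.0302). E2f1, a factor that switches on S phase genes, had 8.73, 8.83 and 8.63 in controls and 8.69, 8.83 and 8.37 after TGF-β1. The groups overlapped, with replicate 3 the lowest, and the log2 fold change was -0.10 (95% CI -0.44 to 0.25, limma adjusted p = 0.709), which was 0.03 without replicate 3. Ccne2 had log2 signals of 1.56, 2.16 and 1.59 in controls and 1.57, 1.59 and 1.56 after TGF-β1, all not well above background.

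Several members were measured by more than 1 probe. In 17 of 19 such members every probe put TGF-β1 replicate 3 on the same side of the control mean, and in 13 of 19 the log2 fold changes of all probes had the same sign. The median spread of the log2 fold change between probes of a member was 0.23.

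The array values were also set against the promoter words. Among the tested mitosis genes with a promoter window, the 19 with both CHR and CCAAT had a median deviation of 0.66 on TGF-β1 replicate 1 and -0.62 on replicate 3. The 7 without both had 0.87 and -1.19. The 933 genes with both words over all genes tested had 0.00 and -0.01. The 8 S phase genes with an E2F word had 0.27 on TGF-β1 replicate 1 and -0.04 on replicate 3, and the 10 without had -0.07 and -0.01.

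Further genes of the same pathways were read from lists of names. Of 48 other mitosis genes 43 were tested, with none called, 31 higher and 12 lower and a median log2 fold change of 0.15. On TGF-β1 replicates 1, 2 and 3 their median deviation was 0.44, 0.23 and -0.20, in the same order as in the members. The extremes were Pbk, a mitotic kinase, at -1.48 (limma adjusted p = 0.418) and Espl1, the protease separase, at 0.56 (limma adjusted p = 0.627), which were -0.14 and 1.30 without TGF-β1 replicate 3. Of 43 other replication genes 42 were tested, with none called, 15 higher and 27 lower and a median of -0.11. The lowest adjusted p belonged to E2f2, an activating E2F, at -1.41 (SE 0.31, limma adjusted p = 0.0798), and -1.54 without TGF-β1 replicate 3 (adjusted p = 0.0376). Pole, the catalytic subunit of the leading strand polymerase, had 0.80 (limma adjusted p = 0.23), and 1.17 without TGF-β1 replicate 3 (adjusted p = 0.022). Without that array Pole and E2f8, at 1.43, were DEGs and higher, and E2f2 was a DEG and lower. All 19 brakes and G1 regulators were tested and none was called. Ccnd3, cyclin D3, had a log2 fold change of -0.44 (adjusted p = 0.112 by limma, and 0.0333 at -0.51 without TGF-β1 replicate 3) and Cdkn2b, the inhibitor p15 that TGF-β is known to induce in epithelial cells, had 0.29 (limma adjusted p = 0.176).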

How the data were processed

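Total RNA of 6 cultures was measured on 1-colour Agilent arrays. The authors deposited, per array, spot intensities on a linear scale from Agilent Feature Extraction 11.0.1.1, subtracted for background and not normalised between arrays. Here log2 values were normalised by quantiles. Control spots and spots marked as outliers were left out, which kept 56599 of 56605 probes. Probes were matched by RefSeq accession to symbols of GRCm38.p6 (32991 of 35883). A probe had to be well above background on 3 or more arrays, and the brightest such probe stood for its gene, which gave 14345 genes. Groups were compared with limma 3.58.1 in R 4.3.3, with p adjusted over all genes by Benjamini-Hochberg. Signal levels of different probes were used to pick a gene's probe, to call a second probe dimmer and to set the subset with a mean log2 signal of at least 8. They were also summed over the marker and hypoxia lists. No fold change was taken between different probes. The number of arrays, 3 per group, limits the precision, and an exact permutation test of 1 gene cannot go below p = 0.1. All arrays shared 1 slide and 1 scan time. The members and the gene lists were chosen with earlier results of these data known. Values on every array are given for Mki67, Top2a, Pcna, E2f1, Ccne1, Ccne2 and, in each class, the 6 lowest and 4 highest log2 fold changes; other members were named after their values were seen. From the other lists, a few of the 4 highest and 4 lowest of each were named. Same-numbered arrays deviated together only in part (correlations -0.01, 0.33 and -0.05), so the numbers were not taken as pairs. The script was tested on simulated data. The settings tried beside these were the 75th percentile as the scale, a normexp background, other filters, the mean of a gene's probes, a trended prior, array weights, a replicate or slide row block, slide rows alone, other thresholds, the methods' t-test and each array left out.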

Additional observations from a re-analysis of the deposited data

How the results depend on the processing

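No member was called under any setting with 2-fold and an adjusted p, except in slide row 1 alone, where Mki67, Top2a, Cenpe and Cenpf were higher, 4 in all; at any size of change, 9 named members had an adjusted p under 0.05 with array weights and 10 in row 1 alone. With an unadjusted p and no minimum change 5 were higher and 3 lower. The median log2 fold change of the members was -0.03 and moved to 0.34 with array weights (0.297 for TGF-β1 replicate 3, the lowest), 0.44 in slide row 1 alone and -0.56 in slide row 2 alone. In row 2 the mitosis median was -1.26 and the S phase median lay 1.14 above it. Leaving out 1 array gave a median of the members from -0.23 (TGF-β1 replicate 1) to 0.33 (TGF-β1 replicate 3). In slide row 1 alone 4 of the 22 named members changed sign, Ttk (0.94, past the adjusted threshold), Ccnb1 (0.70), Nusap1 (0.13) and Cdc6 (0.10), and in row 2 alone 5 did, Mki67 (-1.79), Cenpe (-1.70), Top2a (-1.40), Prc1 (-0.22) and Ccne1 (-0.02). Members with every TGF-β1 array below every control numbered 3, or 5 with scaling to the 75th percentile, 8 in row 1 alone and from 3 to 7 with 1 array left out. Members above numbered 4, or 2 with the mean of probes, 31 in row 1 alone and from 4 to 24 with 1 array left out. With all arrays, 13.5% of all genes lay below and 12.9% above. With fewer arrays per group any gene separates more easily, and no share over all genes is given for those settings. Those counts are therefore not read as a result about the members. The replicate block, in which numbers were treated as a pairing that the data did not bear out, called 0 members. Control replicate 2 correlated best with TGF-β1 replicate 2, and replicates 1 and 3 did not with their own numbers.

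Over all genes, 171 were called higher and 27 lower. Normexp background gave 16 lower, no filter 49 higher and 11 lower, array weights 594 and 213, the replicate block 86 higher, the slide row block 45 lower, row 1 alone 627 and 234, no minimum change 58 lower, an unadjusted p 1641 and 1543, and the methods' t-test 312 and 76 unadjusted or 4 and 1 adjusted. With 1 array left out there were 49 to 553 higher and 7 to 156 lower, the highest counts without TGF-β1 replicate 3. The cause of these changes was not tested. Probes near background, as for Ttk, Ndc80, Kif11 and Cdc45, limit what a low signal can show.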
